A study of Homo sapiens with 4 samples.

Results

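The genes described here are 10 genes of the melanocyte lineage and of pigment formation, read by symbol from a table of 56832 genes. They are the transcription factor genes MITF, SOX10 and PAX3, the melanosome genes PMEL, MLANA, GPR143 and OCA2, and the melanin enzyme genes TYR, TYRP1 and DCT. RNA was sequenced from A375, an established human melanoma cell line that the labels give as wild type, grown in DMEM with 10% serum. Both groups were treated for 48 h, the vehicle group with isopropanol and the octanoate group with 1 mM octanoate, a medium-chain fatty acid, with 2 libraries each. The labels do not say whether the libraries of a group came from separate cultures, so the p-values measure the spread between these libraries, which may be technical. For each gene that spread was in part taken from other genes of like level.

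Melanocytes make melanin inside melanosomes, organelles related to lysosomes. MITF is a basic helix-loop-helix factor that binds short E-box sequences before pigment genes, and SOX10 and PAX3 are factors of the neural crest lineage that act on MITF. Melanoma lines range from pigmented ones rich in MITF and its pigment targets to lines that make little or no pigment.

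The E-box letters CATGTG, which MITF is known to bind, stand before 5 of the members for which a start site was found in the RefSeq promoter table (GRCh38.p14), and 1 stretch of each is shown because these 5 are all pigment genes. The 250 bases before each start were searched on both strands. Each line below runs 5′ to 3′ on the strand of the gene, with the match in capitals (CACATG is the same motif on the other strand).
TYR, chr11:89177759-89177788, plus strand: agaaaagtcagtCATGTGcttttcagagga
TYRP1, chr9:12693229-12693258, plus strand: ttggaagggaatCATGTGctgatcaagtcc
DCT, chr13:94479799-94479828, minus strand: tgcactttgggtCATGTGctaatgatgagg
GPR143, chrX:9765863-9765892, minus strand: cagcccgcccagCACATGacccaggcaggc
OCA2, chr15:28099451-28099480, minus strand: tgtgggcggggcCATGTGggcagctttgtg

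The motif CATGTG was found in 9.42% of the 35114 promoter windows of the table. TYR, TYRP1, GPR143 and the DCT start nearer to the gene body held 2 matches each, and OCA2 held 1. Once these lines had been read, the longer stretch TCATGTGCT, which contains CATGTG, was searched as well. It was present before TYR, TYRP1, DCT and GPR143 and in 64 windows of the table in all (0.182%). Because the stretch was picked from the lines above, its presence before these genes was already known and is no test. No CATGTG was in the windows of MITF, PAX3 and MLANA or at the other DCT start, and CACGTG (6.35% of all windows) was in none of the windows of the members. The SOX motif ACAAAG (13.7% of all windows) was found before OCA2 and before the second of 3 MITF starts.

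The third MITF start, the one farthest downstream of the 3, lies behind the cyclic AMP response element TGACGTCA (1.65% of all windows), the element through which melanocortin signalling is known to act on MITF. It is shown with that element in capitals.
MITF, chr3:69936428-69936459, plus strand: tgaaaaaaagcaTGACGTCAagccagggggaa

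The window of DCT, which encodes the enzyme dopachrome tautomerase, is shown whole because it holds both E-box matches and contains no exon of GENCODE 29. Of the other windows with a CATGTG match, GENCODE 29 has exons over all 250 bases for TYR, 117 for GPR143, 76 for TYRP1 and 43 for OCA2.
DCT, chr13:94479683-94479932, minus strand: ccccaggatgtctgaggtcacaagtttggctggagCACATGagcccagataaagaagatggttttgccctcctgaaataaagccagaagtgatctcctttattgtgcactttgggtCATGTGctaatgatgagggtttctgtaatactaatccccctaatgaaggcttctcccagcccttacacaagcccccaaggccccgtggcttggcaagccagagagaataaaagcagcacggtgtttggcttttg

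These matches describe letters in the reference genome and say nothing about binding in A375. The gene-level table does not tell the starts of MITF or DCT apart.

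**Figure D1:**
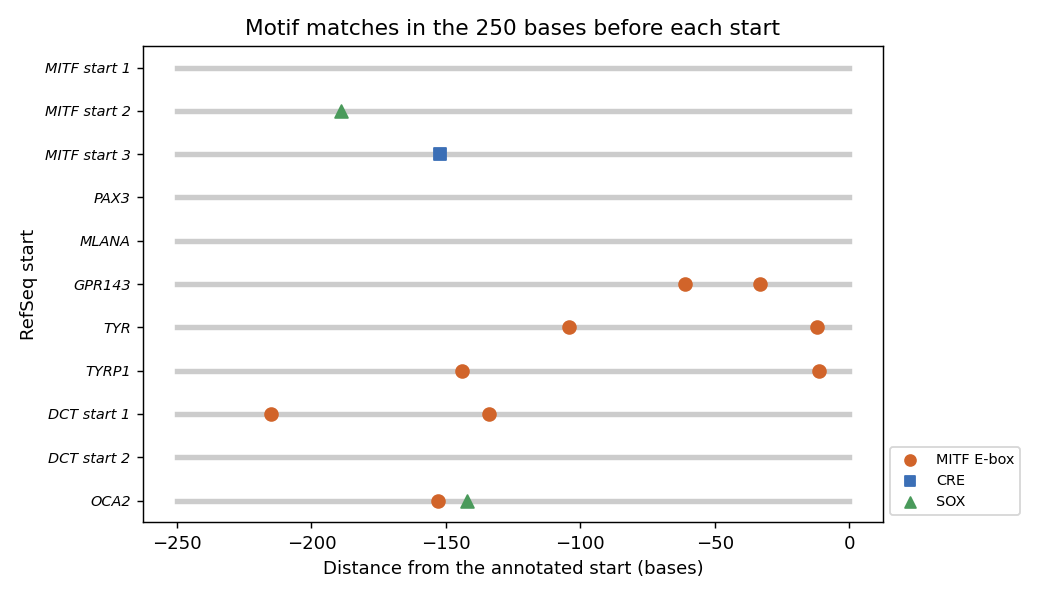
Motif matches in the 250 bases before each RefSeq start (x axis, distance from the start in bases), with 1 row per start. Circles mark CATGTG, the square TGACGTCA and triangles ACAAAG. TYR, TYRP1, GPR143 and DCT start 1 carry 2 circles each, and OCA2 carries 1.

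Recovered read totals ran from 67785956 to 78005035 per library. The melanoma markers fixed for the check of the cell label, among them MCAM, CSPG4 and VIM, were all present, and the 6 of them summed to between 157502 and 177996 normalised counts per library. Of the keratinocyte markers KRT1 was at 0 in every library and DSG3 had at most 0.982 normalised counts, although KRT14 and KRT10 were present. The 6 keratinocyte markers summed to 5684 to 6715 normalised counts in vehicle and 4793 to 6447 in octanoate. The 5 leukocyte markers summed to 600 to 670 normalised counts in vehicle and 725 to 777 in octanoate. Nearly all of this was LYZ, the lysozyme gene, and CD3E had at most 2.91 in any library.

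The 10 genes fell into 2 tiers. The 3 transcription factor genes were expressed at readily counted levels, while the 7 pigment genes were low to nearly absent. All reads of the 7 pigment genes together came to 249 and 258 in the vehicle pair and to 281 and 299 in the octanoate pair. Each library held 2317 to 3599 reads of MITF alone. Relative to all reads of a library they were 3.24 and 3.46 RPM in vehicle and 3.60 and 4.41 RPM in octanoate (RPM, reads per 1000000 reads). In a bulk sample fewer cells that express a gene and less RNA per cell cannot be told apart.

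Levels of different genes were compared per length, as RPKM (RPM divided by the exon length in kilobases), over the 4 libraries. The order was SOX10 (138), MITF (5.54), PAX3 (2.16), OCA2 (0.343), PMEL (0.281), MLANA (0.192), GPR143 (0.130), TYRP1 (0.0539), DCT (0.0385) and TYR (0.0133). SOX10, MITF and PAX3 were each separated from the next lower gene in all libraries, as were MLANA from GPR143 and DCT from TYR. The ranges over libraries of OCA2 and PMEL, PMEL and MLANA, GPR143 and TYRP1, and TYRP1 and DCT overlapped. Within each library PMEL was nonetheless above MLANA, and GPR143 above TYRP1. The order of OCA2 and PMEL changed between libraries. DCT was above TYRP1 in both vehicle libraries and below it in both octanoate libraries, on few reads. Neither order is resolved over the 4 libraries. On this per-length scale SOX10 was 25.0 times MITF and 10394 times TYR.

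Among 18730 protein-coding genes matched by name, SOX10 ranked 224th, with 98.8% of genes at a lower level per length. MITF lay above 66.4% of them and PAX3 above 52.3%. The 7 pigment genes lay above between 16.5% (TYR) and 37.4% (OCA2), where 5.33% of protein-coding genes had no read at all. The median of the protein-coding genes was 1.77 RPKM, below PAX3 and above each pigment gene.

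**Figure D2:**
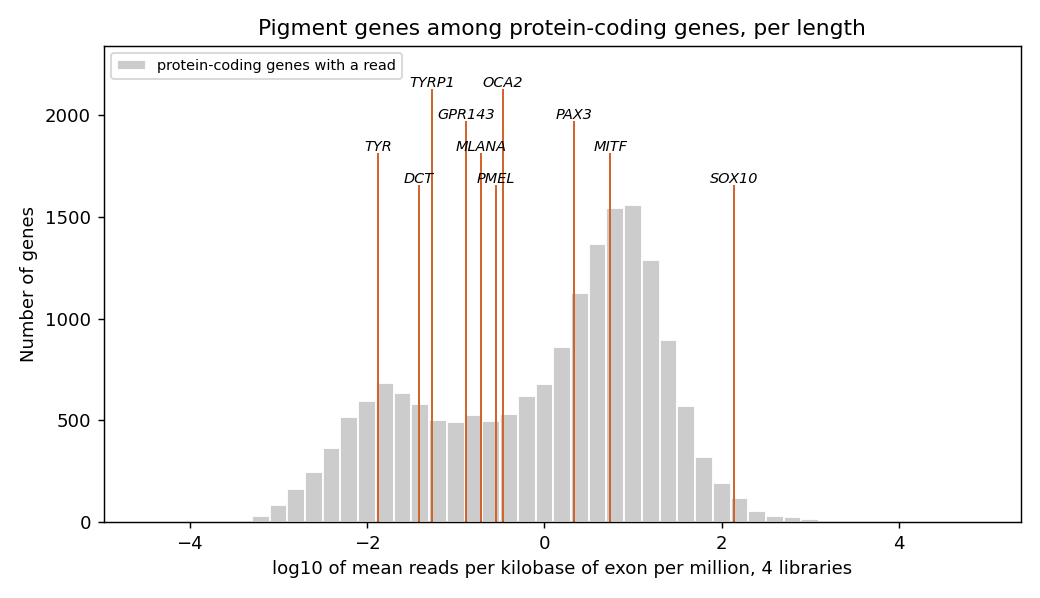
Histogram of mean RPKM (x axis, log10) over protein-coding genes with a read (y axis, number of genes), with the 10 genes as vertical lines. SOX10 stands in the upper tail at 138, MITF and PAX3 lie in the main peak, and the 7 pigment genes lie to its left, from 0.343 down to 0.0133.

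A gene was called near silent when its normalised count was under 10 in each of the 4 libraries, a state shared by 21.2% of protein-coding genes. TYR, which encodes tyrosinase, the enzyme of the first step of melanin synthesis, was the only member that met this. Its 2 vehicle libraries held 4 reads each and its 2 octanoate libraries held 2 reads each. With under 50 in each library as the limit, TYRP1, DCT and GPR143 were included too. With under 0.1 RPKM in each library, they were TYR and DCT. TYRP1 missed that limit in octanoate 2 and GPR143 missed it in 3 libraries. Which genes meet it depends on the merged exon length, 7543 bases for DCT, 3741 for TYRP1 and 2486 for GPR143. Total reads were 86, 58 and 96.

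To ask how the genes responded to octanoate, the groups were compared with limma on log2(normalised count + 1). The 20250 genes averaging 10 or more were tested, and a gene was called at a Benjamini-Hochberg adjusted p under 0.05. TYR did not reach that mean. Of the 9 members tested, MITF was called lower and PMEL higher, and 7 were not called. The 2 calls are 22.2% of those tested, below the 29.9% called among all tested genes (16.2% higher and 13.7% lower). Vehicle and octanoate values were fully separated for 5 of these 9 (55.6%), against 63.1% of all tested genes. The median log2 difference was 0.13 over these 9 members and 0.01 over all tested genes.

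MITF, the lineage factor that drives pigment genes, lies at chr3:69739435-69968337 on the plus strand (GENCODE 29, GRCh38). Its normalised count was 3533 and 3330 in vehicle and 2414 and 2511 in octanoate. Both octanoate libraries were below both vehicle libraries. The group values were 3431 ± 143 and 2463 ± 68.6 (SD, n = 2 each), a 1.39-fold lower level under octanoate. The log2 difference was -0.48 (SE 0.06, 95% interval -0.61 to -0.35, limma adjusted p 2.33e-06). It was called lower in each of the 14 alternatives, with values from -0.52 to -0.44 and adjusted p from 1.60e-13 to 0.0475. The authors' deposited table gives MITF a log2 fold change of -0.48 with an adjusted p of 3.80e-09. No exon of another gene overlaps those of MITF in GENCODE 29, and no sequence shared with another gene was found.

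Over the 4 libraries the log2 values centred on each gene's mean were closest to those of MITF for IQCE, HEXIM1 and TRMO, out of 13481 genes compared. Their root mean square distances were 0.00827, 0.0135 and 0.0155 on the log2 scale, and their log2 differences were -0.46, -0.50 and -0.46. A likeness over 4 libraries in 2 groups is a description of these libraries.

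SOX10, the neural crest factor at chr22:37970686-37987422 on the minus strand, is the most abundant of the 10 genes. Its normalised count was 41363 and 37790 in vehicle and 39112 and 34072 in octanoate. The groups overlapped, since octanoate 1 lay between the vehicle libraries. The log2 difference was -0.12 (SE 0.07, 95% interval -0.25 to 0.02, limma adjusted p 0.209). Leaving out 1 library moved it from -0.02 (without octanoate 2) to -0.21 (without octanoate 1, adjusted p 0.0509), with no call. Among same-numbered libraries, octanoate was below vehicle in both pairs. With the replicate number as a block, SOX10 was called lower (limma adjusted p 0.0175), the only call in its 14 alternatives. SOX10 exons overlap those of POLR2F on the opposite strand by 89 bases. POLR2F, an RNA polymerase subunit gene, had a log2 difference of -0.27 (limma adjusted p 0.00189). Its part in the count of SOX10 was not tested.

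PAX3, a paired-box factor at chr2:222199888-222298996 on the minus strand, had 1221 and 1204 normalised counts in vehicle and 1327 and 1321 in octanoate. Both octanoate libraries were above both vehicle libraries by a small margin. The log2 difference was 0.13 (SE 0.07, 95% interval -0.02 to 0.27, limma adjusted p 0.192). PAX3 was called in none of its 14 alternatives.

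**Figure D3:**
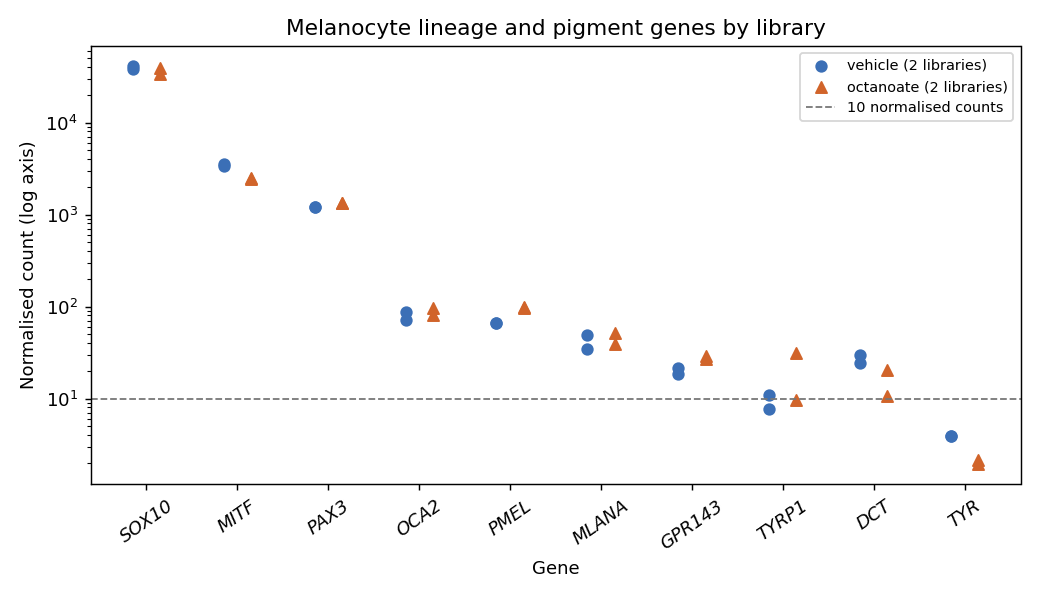
Normalised count of each gene in each library (y axis, log scale; circles, 2 vehicle libraries; triangles, 2 octanoate libraries; dashed line, 10 normalised counts), in the per-length order. SOX10, MITF and PAX3 are above 1000, the 7 pigment genes are below 100, and only TYR is under the line in every library.

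The melanosome matrix and sorting genes were low in every library. PMEL, which encodes the protein that forms the fibrils on which melanin is laid down, lies at chr12:55954105-55973317 on the minus strand. It had 65.8 and 65.9 normalised counts in vehicle and 98.2 and 95.4 in octanoate. Both octanoate libraries were higher, from 65.8 ± 0.0829 to 96.8 ± 1.99 (SD, n = 2 each). The log2 difference was 0.55 (SE 0.19, 95% interval 0.16 to 0.94, limma adjusted p 0.0289).

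Over its 14 alternatives the log2 difference of PMEL ran from 0.52 to 0.57. The call of PMEL was not firm. It was kept in 8 of 14 alternatives. It was lost with no filter (limma adjusted p 0.0853), with DESeq2 on recovered reads (adjusted p 0.242) and without any 1 of the 4 libraries, with adjusted p of 0.0838 without vehicle 1, 0.0758 without vehicle 2, 0.124 without octanoate 1 and 0.0928 without octanoate 2. In the authors' deposited table its adjusted p is 0.224, with a log2 fold change of 0.56. In GENCODE 29, PMEL exons overlap exons of CDK2 on the opposite strand by 89 bases. CDK2, a cell cycle kinase gene, had 5331 and 5321 normalised counts in vehicle and 6621 and 6623 in octanoate, a log2 difference of 0.31 (limma adjusted p 0.000145), and is itself among the MITF targets described further on. The sources used here do not say whether counting used strand, and the part of CDK2 reads in the count of PMEL was not tested.

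MLANA encodes the melanosome protein also known as MART-1 and lies at chr9:5890802-5910606 on the plus strand. It had 49.1 and 34.9 normalised counts in vehicle and 39.5 and 52.0 in octanoate. The groups overlapped. Its log2 difference of 0.13 (SE 0.26, 95% interval -0.42 to 0.67, limma adjusted p 0.764) was less than the spread between replicates.

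GPR143, the ocular albinism receptor of the melanosome membrane at chrX:9725346-9786297 on the minus strand, had 18.6 and 21.3 normalised counts in vehicle and 28.9 and 27.1 in octanoate. Both octanoate libraries were above the vehicle libraries. The difference rested on 41 reads in vehicle and 55 in octanoate. At that depth the log2 difference was 0.47 (SE 0.33, 95% interval -0.21 to 1.15, limma adjusted p 0.311).

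OCA2, the melanosome channel protein gene at chr15:27754875-28099358 on the minus strand, had the highest mean RPKM of the 7 pigment genes, though it overlapped with PMEL. It had 71.7 and 86.2 normalised counts in vehicle and 81.8 and 95.4 in octanoate. The groups overlapped, with a log2 difference of 0.17 (SE 0.19, 95% interval -0.23 to 0.56, limma adjusted p 0.559). Leaving out 1 library moved it from 0.03 (without vehicle 1) to 0.30 (without vehicle 2), with no call.

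The 3 enzyme genes of melanin synthesis had the 3 lowest mean RPKM of the 10. The range of TYRP1 over libraries overlapped with that of GPR143, though TYRP1 was the lower within each library. TYR, at chr11:89177452-89295759 on the plus strand, had 3.93 and 3.88 normalised counts in vehicle and 1.93 and 2.17 in octanoate. All 4 libraries together held 8 vehicle and 4 octanoate reads. The ratio of octanoate to vehicle was 0.523 with an exact 95% interval of 0.115 to 1.95, which covers counting error only, so no direction was detectable at this depth. TYR shares 409 bases at 98.8% identity with the pseudogene TYRL, which was at 0 in every library.

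TYRP1, a tyrosinase-related enzyme gene at chr9:12685439-12710290 on the plus strand, had 10.8 and 7.75 normalised counts in vehicle and 9.63 and 31.4 in octanoate. Octanoate 2 stood above the other 3 libraries, and octanoate 1 lay between the vehicle libraries. The log2 difference was 0.87 (SE 0.51, 95% interval -0.18 to 1.91, limma adjusted p 0.209). Without vehicle 2 it was 0.65 (adjusted p 0.427), and without octanoate 1 it was 1.67 with an adjusted p of 0.0229, so a call appears where the high library alone stands for its group. TYRP1 overlaps 102 exon bases of LURAP1L-AS1 on the opposite strand.

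DCT, the dopachrome tautomerase gene at chr13:94436808-94479682 on the minus strand, had 24.5 and 30.0 normalised counts in vehicle and 10.6 and 20.6 in octanoate. Both octanoate libraries were below the vehicle libraries, from 56 reads to 30 over the pairs. The log2 difference was -0.83 (SE 0.38, 95% interval -1.62 to -0.04). It was not called, with an unadjusted p of 0.0396 and a limma adjusted p of 0.106. Leaving out 1 library moved it from -0.38 (without octanoate 1, adjusted p 0.590) to -1.28 (without octanoate 2, adjusted p 0.0413).

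**Figure D4:**
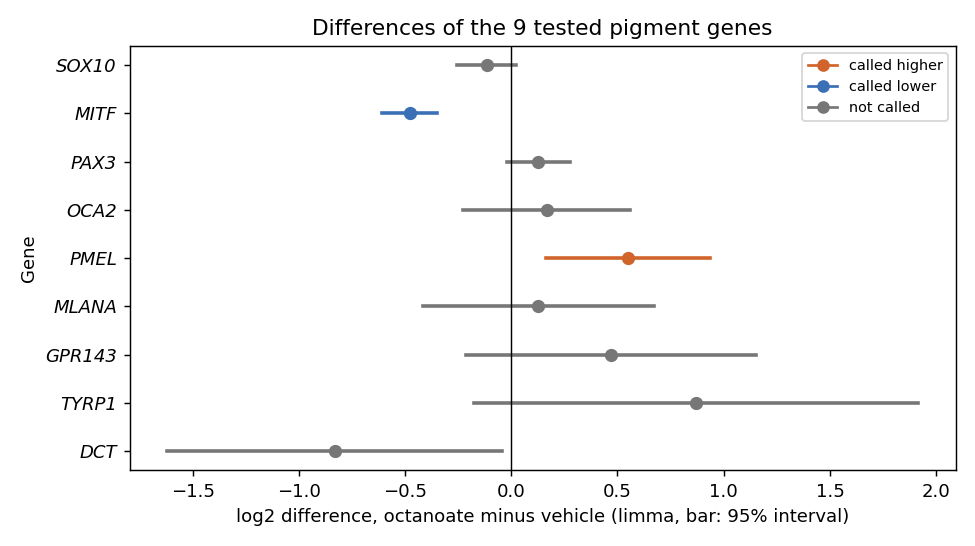
Log2 difference of octanoate minus vehicle (x axis) for the 9 tested genes (y axis), with the limma 95% interval as a bar and TYR left out. MITF is the gene called lower at -0.48 and PMEL the gene called higher at 0.55, and the intervals widen toward the genes with few reads.

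Genes around the members were grouped in 7 lists with 106 different genes, 97 of which were tested. Of these, 24 were called higher and 25 lower. The lists were written with earlier results of these data known, so their counts describe the pathway and are set beside the 29.9% of all tested genes.

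Receptors, ligands and signalling genes upstream of MITF gave 2 higher and 1 lower call among 9 tested of 12 (33.3% called). MC1R, the melanocortin receptor that raises cyclic AMP, had 439 and 389 normalised counts in vehicle and 311 and 314 in octanoate, a log2 difference of -0.40 (limma adjusted p 0.00535). Its call was kept in 10 of 14 alternatives and lost without vehicle 1, with no filter, with no intensity trend and with DESeq2 on recovered reads. EDNRB, the endothelin receptor of melanoblasts, rose by 0.37 in log2 units (limma adjusted p 5.70e-05), a call lost with no intensity trend. KIT, the receptor of stem cell factor, was near silent, with at most 5.89 normalised counts in any library. CRTC3, a coactivator of CREB, rose by 0.19 (limma adjusted p 0.0366), a call kept in 7 of 14 alternatives and lost without any 1 library. CREB1, the cyclic AMP response factor, and SIK2, a kinase that restrains CREB coactivators, had log2 differences of -0.05 and -0.06 and were not called.

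Among MITF relatives and regulators, 1 was called higher and 3 lower of 13 tested (30.8% called). POU3F2, also known as BRN2, had 3214 and 3040 normalised counts in vehicle and 2292 and 2321 in octanoate, a log2 difference of -0.44 (limma adjusted p 8.12e-06). ZEB2, a zinc finger factor of the melanocytic state, fell by 0.34 (limma adjusted p 0.000130), a call lost with no intensity trend. TFE3, a paralog of MITF, rose by 0.17 (limma adjusted p 0.0346). Its call was lost with no filter, with no intensity trend, without vehicle 2 and without octanoate 1. The median of the list was -0.08.

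Melanosome transporters and channels gave 1 higher and 3 lower calls among 7 tested of 9 (57.1% called). CTNS, the cystine exporter of lysosomes, fell by 0.36 (limma adjusted p 0.000788), a call lost with no intensity trend. MFSD12, a cysteine importer of melanosomes, fell by 0.25 (limma adjusted p 0.00397). Its call was lost with no filter, with no intensity trend, without vehicle 1 and without octanoate 2. SLC24A5, a potassium-dependent sodium-calcium exchanger of pigment cells, had at most 2.17 normalised counts in any library, and SLC45A2 between 9.82 and 17.3.

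The general machinery of melanosome formation and transport passed the filter on low values in full, with all 23 genes tested. Of these, 2 were called higher, 4 lower and 17 were not called (26.1% called), with a list median of -0.00. RAB38, a small GTPase that sorts melanosome cargo, had 1707 and 1601 normalised counts in vehicle and 2845 and 2459 in octanoate. The log2 difference of RAB38 was 0.68 (limma adjusted p 1.04e-07), a call lost with no intensity trend. MLPH, the adaptor that links melanosomes to myosin, rose by 0.83 (limma adjusted p 6.29e-07). HPS1, a subunit of a complex that activates RAB38, fell by 0.32 (limma adjusted p 0.000645). The 4 lower calls, of HPS1, HPS5, HPS6 and VPS33A, came to 0 with no filter and to 0 with no intensity trend. Some of them were also lost without vehicle 1 and without octanoate 2.

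MITF target genes outside pigment synthesis went both ways, with 7 higher and 4 lower of 19 tested (57.9% called). GPNMB, a melanosome glycoprotein gene, had 7403 and 6675 normalised counts in vehicle and 4343 and 4353 in octanoate, a log2 difference of -0.69 (limma adjusted p 4.07e-09). BCL2A1, a survival gene of the BCL2 family, rose from 89.3 and 87.2 to 344 and 331, a log2 difference of 1.92 (limma adjusted p 7.99e-11). MET, a receptor kinase gene, rose by 0.54 (limma adjusted p 9.57e-08). TRPM1 and CAPN3, both melanocyte genes, were under 10 normalised counts in each library.

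Of the list of Schwann and neural crest genes linked to SOX10, all 14 genes were tested, and 8 were called lower and 4 higher (85.7% called). The list median was -0.47, where all tested genes had 0.01. S100B, a calcium-binding protein gene used as a melanoma marker, had 4234 and 3741 normalised counts in vehicle and 1917 and 1746 in octanoate, a log2 difference of -1.12 (limma adjusted p 9.15e-12). FOXD3, a neural crest factor gene, fell by 1.39 (limma adjusted p 2.08e-09). With no filter 7 were called lower and 1 higher, and with no intensity trend 7 lower and 0 higher. SOX10 itself was not called in the main fit and was called lower with the replicate number as a block, as given above.

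Genes of the melanoma state with low MITF gave 7 higher and 3 lower calls among 14 tested (71.4% called), with a median of 0.21. With no intensity trend 4 were called higher and 1 lower, and with DESeq2 on recovered reads 5 higher and 3 lower. JUN and FOSL1, both subunits of the AP-1 factor, rose by 1.38 and 1.03 in log2 units (limma adjusted p 5.34e-14 and 1.88e-12). NGFR, a nerve growth factor receptor gene that is also in the SOX10 list, fell by 0.63 (limma adjusted p 1.35e-08).

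**Figure D5:**
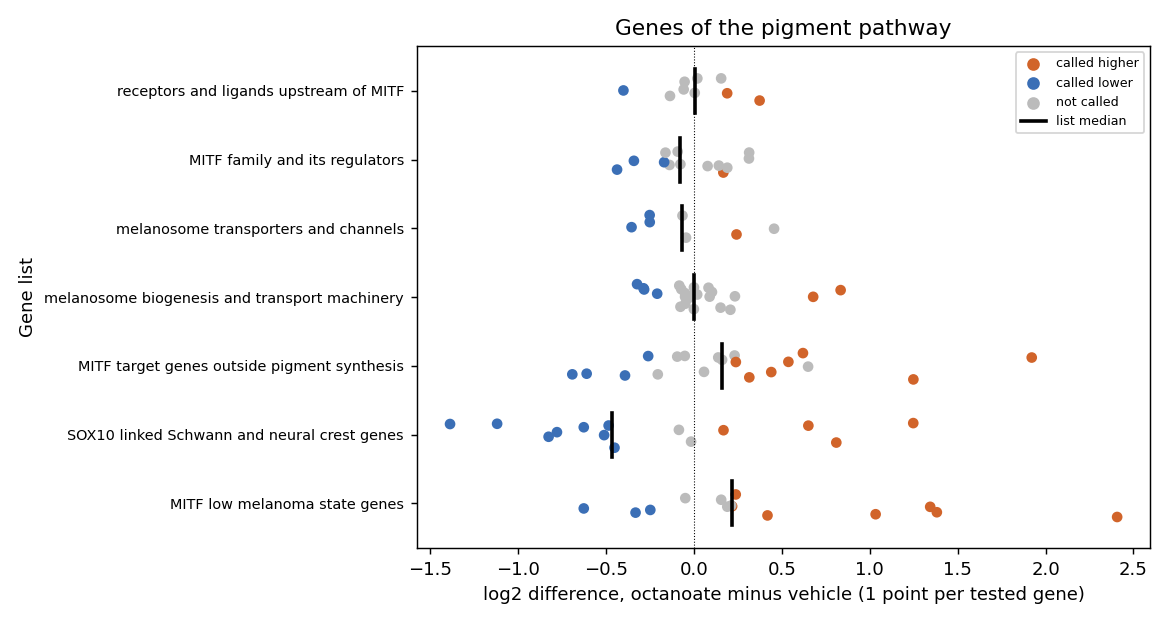
Log2 difference of octanoate minus vehicle (x axis) for each tested gene of the 7 lists (y axis), coloured by call, with the list median as a black bar. The list of Schwann and neural crest genes linked to SOX10 has its median at -0.47, and the machinery of melanosome formation is centred at -0.00.

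Pigment genes are also expressed in the retinal pigment epithelium, so markers of that tissue were read beside PMEL. Of its 5 markers, 3 were called higher and 1 lower (80% called, against 29.9% of all tested genes). Their sum was 1974 and 2007 normalised counts in vehicle and 3255 and 3317 in octanoate. LRAT, the retinol acyltransferase gene, made up most of it and rose by 0.78 (limma adjusted p 1.88e-09). RPE65, the retinoid isomerase gene, rose from 5.89 and 13.6 to 69.3 and 74.8. The marker called lower was TTR, with a log2 difference of -1.52 (limma adjusted p 0.0247), a call kept in 7 of 12 alternatives. Sums of the 4 endothelial markers also lay higher, at 239 to 241 in vehicle and 365 to 385 in octanoate, and those of the 6 fibroblast markers lower, at 1344 to 1346 against 1119 to 1134. LYZ rose by 0.26 (limma adjusted p 0.0273). The LYZ call was lost with no filter, no intensity trend, DESeq2 on recovered reads, without vehicle 2 and without octanoate 2. KRT14, a keratin gene, fell by 2.08 (limma adjusted p 2.40e-13). What part these markers have in the results for PMEL and MITF was not tested.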

How the data were processed

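The authors deposited normalised counts, a signal that per the file name DESeq2 scaled with 1 size factor per library. Per the submitters' processing notes, bcl2fastq 2.17, Trim Galore, STAR 2.4, Picard, HTSeq 0.9.1, DESeq2 and the build hg38 were used; the annotation and the use of strand are not given in the sources used here. In the authors' deposited table of the comparison, values are log2 fold changes, a test score and p-values, from which the rows of the 10 genes were copied. Every positive value of the main table was a whole multiple (within 0.01) of the smallest one of its library (100% of values). From this 1 size factor per library was inferred, and whole reads were recovered.

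Log2(normalised count + 1) of genes averaging 10 or more was tested with limma 3.58.1 (R 4.3.3), two-sided, the spread following a trend with level, and p-values were adjusted over all genes tested. An exact permutation test of 2 against 2 libraries cannot go below p = 0.333. Alternatives were other pseudocounts, filters and scalings, no intensity trend, a replicate block, each library left out, edgeR 4.0.16 and DESeq2 1.42.0 on recovered reads; the fits were tested on simulated data. Levels per length used merged exons of GENCODE 29, in which 51.9% of the gene names matched uniquely. Sequences came from RefSeq (GRCh38.p14); 8 of the 10 genes had a promoter there. Shared sequence was searched with blastn 2.17.0 (at least 95% identity over 100 bases). The 10 genes and the lists were chosen with earlier results of these data known. All 10 genes were described; from each list the genes named were among the 3 called with the smallest p and the 2 most abundant not called. KIT, TFE3, HPS5, HPS6, VPS33A, SLC24A5, SLC45A2, TRPM1, CAPN3, NGFR and the marker genes named were chosen after their values were seen. Some genes that this rule names are not reported here.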

Additional observations from a re-analysis of the deposited data

How the results depend on the processing

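Without a filter 2595 genes were called, and 1625 without an intensity trend, against 6048. With no filter in limma and with DESeq2 on recovered reads, 0 members were called higher (1 and 0 at an unadjusted p under 0.05), while edgeR called 1. Leaving out 1 library gave 0 to 1 members called higher (TYRP1, without octanoate 1) and 1 to 2 called lower (DCT added, without octanoate 2). With the replicate number as a block, for which there are only 2 pairs, 2 members were called lower because SOX10 was added (log2 difference -0.12, adjusted p 0.0175); deviations of same-numbered libraries had a correlation of 0.27 over 13482 genes. Of the genes in the 7 lists, 49 were called, 28 without a filter and 20 without an intensity trend. The near silent members were 4 with a limit of 50 and 2 with a limit of 0.1 RPKM, against 1. The log2 difference of MLANA ran from -0.11 (without vehicle 2) to 0.37 (without vehicle 1) and changed sign also without octanoate 2 (-0.07). Over the 9 tested members, 107 of 118 alternatives kept direction and call. The cause of these changes was not tested. Depth limits TYR, TYRP1, DCT and GPR143, with 12 to 96 reads each over all libraries.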
